A study of Saccharomyces cerevisiae with 23 samples.

Results

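The last library of a yeast sporulation course, taken after 10 h in sporulation medium (SPO), was compared here with the first, taken at 0 h. The question was which classes of genes had come back to their starting level by the end of the course and which had not. Each side is a single library, so a difference has no replicate check and no p-value is given. A gene was tested if its row spans at least 300 bases and it reached 10 FPKM in at least one of the libraries. FPKM is the number of fragments mapped to a gene, scaled to its length and to all fragments mapped in the library. A gene was called higher or lower at 10 h where the authors' confidence bounds of its values did not overlap and log2(FPKM + 1) differed by at least 1. Of 6867 rows used, 6304 were long enough, 3997 of these were tested, and 2521 had bounds apart. Of those, 536 differed by less than 2-fold, and 1985 were called.

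The series follows 1 strain, A 33606 in the labels, through sporulation with 23 libraries, 1 at each of 23 times. In this strain IME1, the master activator of meiotic entry, and IME4, an RNA methyltransferase, are driven by the copper-inducible CUP1 promoter (pCUP1-IME1 pCUP1-IME4). The cells passed from rich medium (YPD) through an overnight culture in an acetate-based presporulation medium (BYTA) into SPO, and copper sulphate at 25 mM, as the labels give it, was added at 2 h. The 0 h library therefore holds cells before any copper and the 10 h library the same strain at 8 h after its addition. Both libraries are of cells with the same promoter fusions in SPO, and they differ in time and copper together.

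In sporulation a starved diploid yeast cell copies its DNA, recombines and divides its chromosomes through both meiotic divisions, and then packs the products into spores. IME1 turns on the early genes, NDT80 turns on the middle genes through a promoter element called the MSE, and spore wall genes follow. Genes for ribosomes are among the most heavily transcribed in growing yeast and are turned down in starvation. Many genes of the carbon and stress economy respond to starvation itself, so the starting level of each class is that of cells just moved out of an acetate medium.

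The implied number of fragments on listed genes was 691892 at 0 h and 802203 at 10 h, within a range of 368883 in the 7.5 h library to 1467241 over the course. The 7.5 h library also lay low for the typical gene. Its median difference from 0 h over all genes of at least 300 bases was -1.36, and -0.19 after the median-of-ratios scaling used below. Lows quoted at 7.5 h, and rises from 7.5 to 8 h, are unscaled and include this shift. The 4.75 h library lay high for the typical gene, with a median difference of 0.99, and -0.002 after scaling. Peaks quoted at 4.75 h are unscaled too and include that shift. The strand setting is not known, and reads of a gene could not be separated from those of an antisense transcript. As in any bulk sample, a change in the share of cells that express a gene and a change in RNA per cell cannot be told apart. The labelled process was checked with marker genes. All 12 markers of sporulating cells were called higher, and their summed level was 37.6 FPKM at 0 h, 23574 at 8 h and 20626 at 10 h. Most of the 8 and 10 h sums was the single gene SPS4, at 20094 and 18302 FPKM. Markers of meiotic prophase stood at a sum of 12.2 FPKM at 0 h, 3002 at 4.75 h, their highest library, and 53.0 at 10 h, with 2 of 3 tested markers called higher. Of the 8 genes that mark mitotically growing cells, 3 were tested and all 3 (CTS1, EGT2 and DSE2) were called lower, from a sum of 79.9 to 19.4 FPKM over the 8. Of the 8 markers of haploid cells, 1 was tested and 0 were called, and their sum, most of it the short pheromone gene MFA1, was 198 FPKM at 0 h and 303 at 10 h. In between, the sum of these 8 was 7494 FPKM at 4.5 h, its highest library, and 1005 at 8 h.

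The fused genes serve as a check of the labels. Of these, IME1 (YJR094C, chromosome X, 604569 to 605651) stood at 40.4 FPKM at 0 h (bounds 32.9 to 47.9), 9734 at 2.5 h and 118 at 10 h (bounds 105 to 131), and was called higher with a log2 difference of 1.52. The other fused gene, IME4 (YGL192W, chromosome VII, 142246 to 144048), stood at 6.08 FPKM at 0 h, 2949.8 at 2.5 h and 81.1 at 10 h, a difference of 3.54. Both had thus lost most of their peak level by the end and stood above the starting level. NDT80 (YHR124W, chromosome VIII, 356561 to 358444) was at 3.25, 438 and 45.6 FPKM at 0, 6.5 and 10 h. CUP1-1 and CUP1-2, the metallothionein copies whose promoter was used, are shorter than 300 bases, near-identical to each other and wholly under other rows, so their values are uncertain. CUP1-1 was listed at 49.6 FPKM (bounds 0 to 116) at 0 h and at 315 FPKM (bounds 155 to 475) at 10 h.

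Of the 3997 genes tested, 1229 (30.7%) were called higher at 10 h and 756 (18.9%) lower. At a least fold of 4, 517 were higher and 353 lower. The median difference over all tested genes was 0.42 on the log2 scale, which means that the 10 h library lay above the 0 h library for the typical gene. Median-of-ratios scaling over the 23 libraries brought that median to 0.14. It tested 4189 genes and called 971 higher (23.2%) and 939 lower (22.4%), so the share of higher calls among all calls went from 61.9% to 50.8%. Scaling to equal sums called 832 higher and 1079 lower, so which direction holds more calls depends on the scaling. The make-up of the libraries differed as well. A single short row, SNR39B, held 52.1% of the FPKM summed over all rows used at 0 h and 9.90% at 10 h. FPKM divides by length, so this is not its share of the fragments. Of 691892 implied fragments at 0 h, 677232 were on genes of at least 300 bases. The summed FPKM of genes of at least 300 bases was 205171 at 0 h and 283313 at 10 h. How far this moved the calls was not tested. Of the genes called on the deposited scale, 965 higher and all 756 lower ones kept their call under median-of-ratios scaling. The values just inside the limit of 1 were those of CWC2 (7.44 and 15.9 FPKM at 0 and 10 h), GCV1 (58.3 and 28.7 FPKM) and SNF2 (38.6 and 78.3 FPKM), and those just outside it SLM3 (8.52 and 18.0 FPKM), USV1 (441 and 220.2 FPKM) and KES1 (10.2 and 21.3 FPKM). Of the called genes, 146 overlap another row over at least 40% of their length, and 23 higher and 9 lower genes were listed at 0 on the low side, where no fold is given.

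**Figure D1:**
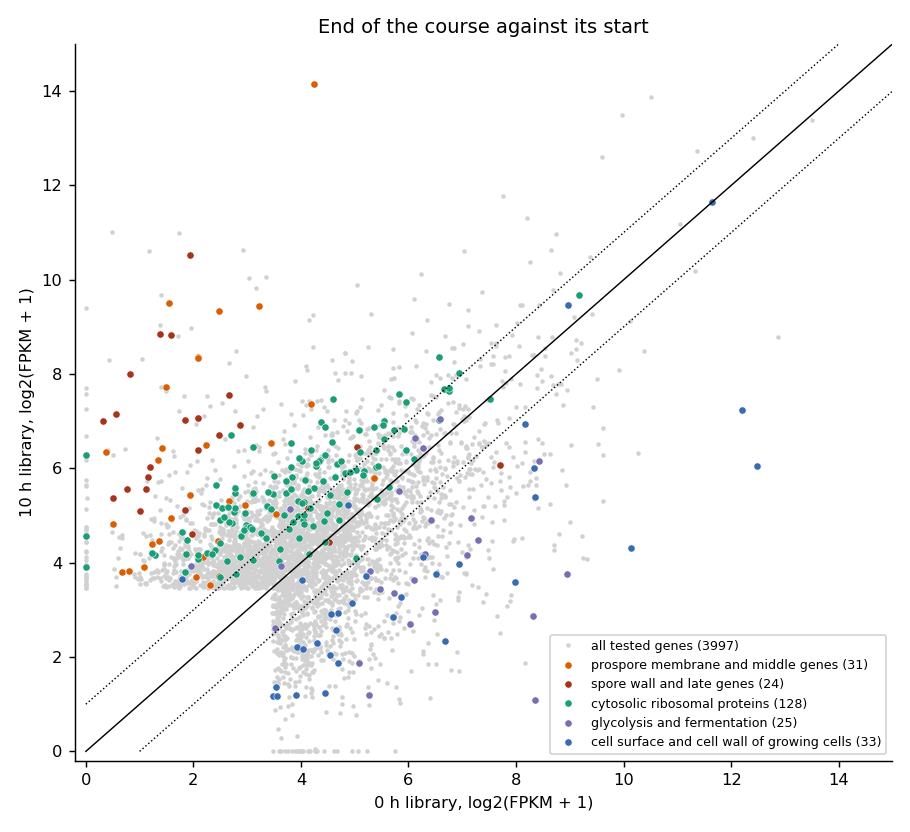
Each point is 1 of the 3997 tested genes, with log2(FPKM + 1) of the 0 h library on the x axis and of the 10 h library on the y axis; the solid line marks equal values and the dotted lines a 2-fold difference. Sporulation genes sit at the upper left, ribosomal protein genes mostly above the line, and glycolytic and growing-cell surface genes mostly below it.

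Some lists held mostly one direction. Against backgrounds of 30.7% higher and 18.9% lower, 29 of 31 tested prospore membrane and middle genes were higher and 0 lower, 22 of 24 spore wall and late genes were higher and 1 lower, and 75 of 128 cytosolic ribosomal protein genes were higher and 0 lower. In the other direction, 28 of 33 surface genes of growing cells, a list that also holds wall genes of resting cells, were lower and 1 higher. Of 25 glycolysis and fermentation genes 17 were lower and 2 higher, and of 26 copper and iron uptake genes 17 were lower and 3 higher. The 29 lists together hold 944 of the tested genes, so 1420 of the 1985 called genes are in no list.

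**Figure D2:**
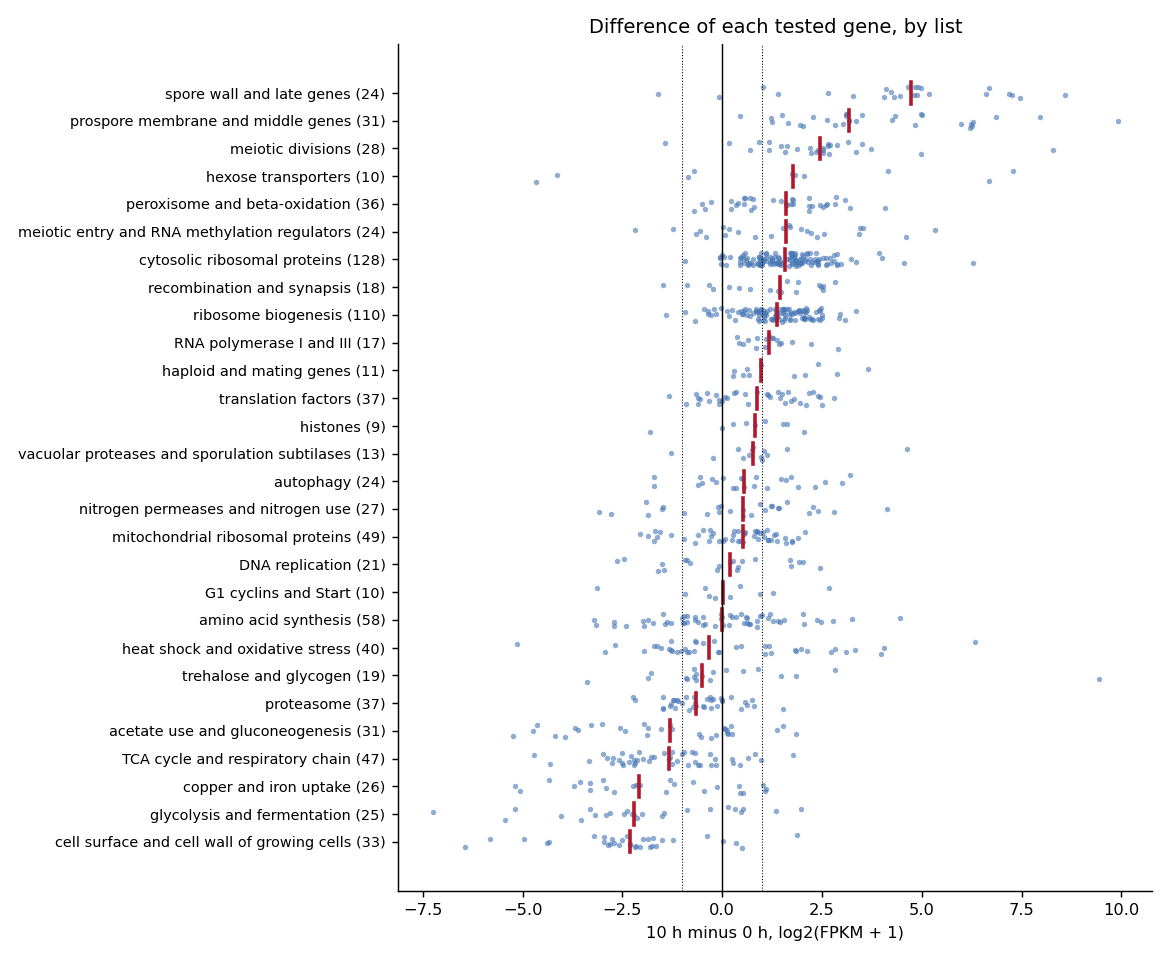
Each point is the log2(FPKM + 1) difference, 10 h minus 0 h, of 1 tested gene, by list, for lists with at least 9 tested genes; red bars are list medians and dotted lines mark -1 and 1. Spore wall and late genes have a median of 4.74 and surface genes of growing cells one of -2.30.

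Among genes with a standard name, sporulation genes gave the largest rises. SPS4 (YOR313C, chromosome XV, 901858 to 902874), a sporulation-specific gene of the middle class, was at 17.9 FPKM at 0 h (bounds 12.7 to 23.1), 20094 at 8 h and 18302 at 10 h (bounds 18136 to 18468), a log2 difference of 9.92. At 10 h it had the highest FPKM of all genes of at least 300 bases, with 6.46% of their summed FPKM. SGA1 (YIL099W, chromosome IX, 178004 to 179653), the glucoamylase that breaks down glycogen in sporulating cells, went from 1.26 to 1332 and 1565 FPKM. DIT1 (YDR403W, chromosome IV, 1274602 to 1276212), which makes the dityrosine precursor for the outermost spore layer, was at 2.80 FPKM at 0 h, 13.1 at 7.5 h, 928 at 8 h and 1471 at 10 h. Its neighbour DIT2, the second enzyme of that pathway, was at 0.240 and 127 FPKM at 0 and 10 h, with 37.6% of it under another row. GAT4, a GATA-family zinc finger gene with a part in spore wall formation, was listed at 0 at 0 h and stood at 674 FPKM at 10 h (bounds 603 to 745).

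The divisions and the spore wall were both represented among the leading rises. AMA1, the activator of the anaphase-promoting complex used in meiosis only, was at 1.62 FPKM at 0 h and 819 at 10 h. SPS1, a kinase needed for spore packaging, was at 1.91 and 728 FPKM. The spore wall genes SPS22 (0.766 to 254 FPKM), SPR1, a glucanase (1.61 to 459 FPKM), SSP2 (2.00 to 456 FPKM) and CTS2, a putative chitinase (1.60 to 526 FPKM), rose as well. So did EMI2, a paralogue of glucokinase (6.54 to 1582 FPKM), SOL1 (7.17 to 1045 FPKM), the hexose transporter HXT10 (1.06 to 319 FPKM) and RRT5 (4.55 to 642 FPKM). Of these 10 genes only EMI2 and SOL1 were at their highest in the 10 h library. The others had been higher before, RRT5 with 8275 FPKM at 6.5 h and SPS22 with 1347 at 7 h.

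Most middle and late genes had passed their peak and remained far from the starting level. The median log2 difference of the tested prospore membrane and middle genes was 4.94 at 8 h and 3.18 at 10 h, and that of the spore wall and late genes 6.25 at 8 h and 4.74 at 10 h. After scaling the 10 h medians were 3.04 and 4.58, and 28 and 21 genes were called higher. Of the 29 middle genes called higher, 0 had their highest library at 10 h, and of the 22 late genes 4 did. DON1, of the prospore membrane, was at 17.3 FPKM at 0 h, 2591 at 6.5 h and 165 at 10 h. SPR3, a sporulation septin, was at 1.82, 2224 and 212 FPKM at 0, 7 and 10 h, and SPO20, a SNARE of the prospore membrane, at 1.53, 799 and 71.2 at 0, 6.5 and 10 h. SPS100, which protects the mature spore, had another course, with 6.25 FPKM at 0 h, a listing at 0 at 8 h and 119.8 at 10 h. SSO1 and OSW7 were among the few members that did not pass, at 39.9 and 54.5 FPKM and at 21.9 and 20.6 FPKM.

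The promoters of these lists were read for the 7 letters CACAAAA, the core of the MSE, on both strands of a window from 350 to 51 bases before the start of the coding row. The core was in 18 of 29 middle genes called higher (62.1%) and 11 of 22 late genes called higher, against 7.35% of all 5675 promoters read. Over all members it was in 20 of 34 middle genes (58.8%) and 12 of 27 late genes (44.4%), so such shares describe the lists as a whole. Among all genes called higher the share was 14.7%, and among those called lower 3.43%. Shown are the pair of called members of each list with the core that had the largest differences, read 5′ to 3′ toward the gene from RefSeq's R64 assembly, with the core, or its reverse complement, in capitals. A window can include part of a neighbouring gene, and a match is a description of the letters only.
SPS4 (chrXV:902925-903224, minus strand): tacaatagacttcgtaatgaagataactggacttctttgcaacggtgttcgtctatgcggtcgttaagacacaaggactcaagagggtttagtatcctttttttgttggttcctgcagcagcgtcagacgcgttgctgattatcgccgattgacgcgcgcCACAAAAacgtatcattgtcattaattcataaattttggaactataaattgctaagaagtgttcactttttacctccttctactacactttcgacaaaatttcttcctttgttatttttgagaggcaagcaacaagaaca
RRT5 (chrVI:223010-223309, minus strand): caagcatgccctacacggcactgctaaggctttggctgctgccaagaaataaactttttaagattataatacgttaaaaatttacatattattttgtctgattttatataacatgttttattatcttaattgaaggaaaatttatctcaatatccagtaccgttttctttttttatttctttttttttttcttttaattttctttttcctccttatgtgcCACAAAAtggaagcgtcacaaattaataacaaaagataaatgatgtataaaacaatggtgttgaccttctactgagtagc
SPS22 (chrIII:41815-42114, plus strand): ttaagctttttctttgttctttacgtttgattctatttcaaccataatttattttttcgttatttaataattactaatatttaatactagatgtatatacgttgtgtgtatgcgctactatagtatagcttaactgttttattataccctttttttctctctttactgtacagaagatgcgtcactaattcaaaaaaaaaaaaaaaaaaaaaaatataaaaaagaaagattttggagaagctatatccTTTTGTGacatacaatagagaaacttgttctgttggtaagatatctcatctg
SPO19 (chrXVI:304037-304336, plus strand): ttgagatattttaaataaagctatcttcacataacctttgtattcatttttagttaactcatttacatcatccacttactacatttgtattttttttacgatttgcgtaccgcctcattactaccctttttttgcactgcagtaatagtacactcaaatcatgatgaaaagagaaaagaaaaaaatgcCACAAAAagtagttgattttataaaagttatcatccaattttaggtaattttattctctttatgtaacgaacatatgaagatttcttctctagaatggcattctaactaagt

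Each of the 4 windows holds 1 match, in SPS22 as the reverse complement. SPO19, a spore wall protein gene, was at 2.59 FPKM at 0 h and 129 at 10 h. The gap between 7.5 and 8 h seen for DIT1 was not shared by SPS4, which was already at 10329.6 FPKM at 7.5 h.

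Genes of the meiotic divisions stayed higher, and those of recombination had come most of the way down. Of 28 tested division genes 22 were called higher and 1 lower, with a median difference of 2.46. Over all 44 members, among them 16 under the 10 FPKM limit, the median was 1.60. The anaphase-promoting complex subunit CDC27 was at 6.88, 653 and 247 FPKM at 0, 8 and 10 h. CDC20, an anaphase activator, was at 7.08 and 49.4 FPKM, the polo kinase CDC5 at 5.39 and 32.8 FPKM, and the B-type cyclins CLB1 at 1.75 and 14.9 FPKM and CLB3 at 8.43 and 58.0 FPKM. All 4 had been higher at an earlier time, CLB3 with 479 FPKM at 6.5 h.

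Of the 44 recombination and synapsis genes, 18 reached the 10 FPKM needed for the test, 9 were called higher and 1 lower, beside 30.7% and 18.9% of all tested genes. The 18 had a median level of 5.66 FPKM at 0 h and 13.6 at 10 h, so many passed through the 10 h library alone. Their median difference was 1.44, against 1.10 over all 44. The list's median over all 44 members was 3.19 FPKM at 0 h, 177 at 4.75 h and 8.11 at 10 h. DMC1, the meiotic strand-exchange protein, was at 3.03 FPKM at 0 h (bounds 0.888 to 5.17), 1100.3 at 2.5 h and 13.9 at 10 h (bounds 9.29 to 18.5). ZIP1, of the synaptonemal complex, was at 1.503 FPKM at 0 h and 13.3 at 10 h after 364 at 5.5 h. SAE3, a partner of DMC1, was at 7.60 and 60.4 FPKM at 0 and 10 h. HOP1 and REC8, of the chromosome axis, missed the 10 FPKM limit, with 1.13 and 7.28 FPKM and 2.31 and 6.56 FPKM at 0 and 10 h.

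Of the 24 tested regulators of meiotic entry and RNA methylation, 14 were higher and 2 lower, with a median of 1.60. IME2, the kinase downstream of IME1, was at 3.68 and 49.2 FPKM, and SLZ1, a partner of IME4, at 7.44 and 42.6 FPKM. The RNA-binding proteins PES4 (1.49 to 99.2 FPKM) and MIP6 (1.197 to 51.9 FPKM) were higher. RIM4, the translational repressor of middle mRNAs, went the other way, from 211 FPKM at 0 h through 2112 at 4.75 h to 45.3 at 10 h, its lowest library. MUM2 and VIR1, of the methyltransferase complex, were not called, at 28.1 and 18.8 FPKM and at 20.3 and 12.4 FPKM.

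Ribosome genes ended above their starting level after having been below it for most of the course. Of 128 tested cytosolic ribosomal protein genes 75 were higher and 0 lower, with a median difference of 1.57, and 123 of the 128 lay above 0. Over the list's 132 members of at least 300 bases the median was 14.4 FPKM at 0 h, 2.12 at 8 h and 41.3 at 10 h, and 0 at 7.5 h, the shallowest library. At 8 h 116 of the 128 lay below their 0 h value, and 74 of the 75 called higher had their highest library of all 23 at 10 h. The higher level therefore rests on the 10 h library alone, and with the 8 h library as the end the list's median was -2.26. After scaling 61 were higher and 1 lower, with a median of 1.30.

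RPL3 (YOR063W, chromosome XV, 444686 to 445849), which has no second copy, was at 18.3 FPKM at 0 h (bounds 13.4 to 23.2), 0.637 at 7 h, 8.41 at 8 h and 68.1 at 10 h (bounds 58.7 to 77.5). Most ribosomal proteins of yeast have a pair of near-identical gene copies that share reads, so values of a single copy are uncertain. Among such copies RPL2A went from 7.57 to 86.4 FPKM, RPL22B from 5.48 to 103 FPKM and RPL27B from 4.38 to 49.3 FPKM. RPP1B and RPS23B were listed at 0 at 0 h and stood at 22.6 and 14.1 FPKM at 10 h. Members closest to their start included RPP2B (20.8 and 20.7 FPKM), RPS10B (67.4 and 72.1 FPKM) and RPL10 (48.6 and 47.6 FPKM, with 61.3% of it under another row).

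Factors that build ribosomes moved in the same direction. Of 110 tested ribosome biogenesis genes 73 were higher and 1 lower, with a median of 1.37, and 66 of the 73 had their highest library at 10 h. Over all 143 members, 33 of them under the 10 FPKM limit, the median was 1.32. At 8 h the list's median difference was -0.01, with 55 of the 110 below their 0 h value. NOP1 (YDL014W, chromosome IV, 427364 to 428347), the methyltransferase of the small nucleolar RNA particles, was at 11.7 FPKM at 0 h, 0.383 at 6.5 h, 21.1 at 8 h and 97.3 at 10 h, a difference of 2.96. NHP2, another protein of these particles, was at 3.40 FPKM at 0 h (bounds 0 to 7.33) and 43.9 at 10 h (bounds 29.8 to 58.0). NOG1, a GTPase of the large subunit, was at 3.49 and 36.9 FPKM, and UTP13, of the small-subunit processome, at 1.75 and 14.5 FPKM. BRX1, NOP15 and BUD22 had returned, with 20.8 and 17.0, 24.4 and 34.1, and 19.0 and 20.7 FPKM at 0 and 10 h.

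The promoter element PAC, searched as GATGAG on both strands of the same window, was in 67 of the 73 ribosome biogenesis genes called higher (91.8%) and in 123 of the 143 members read (86.0%), against 20.04% of all promoters. Among all genes called higher the share was 24.7%, and among those called lower 18.4%. The promoter elements URS1, GATA and STRE were searched too. They were in 7.28%, 14.2% and 25.4% of promoters of genes called higher, against 5.71%, 14.5% and 22.7% of all promoters. Among tested genes the shares were 5.93%, 13.9% and 25.6%. Over all members read, URS1 was in 18 of 43 recombination genes and 7 of 28 regulators of meiotic entry. GATA was in 26 of 48 nitrogen genes, and in 2 of the 11 called higher. STRE was in 17 of 22 trehalose and glycogen genes and 21 of 42 heat shock and oxidative stress genes. The pair of called members with PAC and the largest differences is shown, with PAC or its reverse complement in capitals.
NHP2 (chrIV:87162-87461, plus strand): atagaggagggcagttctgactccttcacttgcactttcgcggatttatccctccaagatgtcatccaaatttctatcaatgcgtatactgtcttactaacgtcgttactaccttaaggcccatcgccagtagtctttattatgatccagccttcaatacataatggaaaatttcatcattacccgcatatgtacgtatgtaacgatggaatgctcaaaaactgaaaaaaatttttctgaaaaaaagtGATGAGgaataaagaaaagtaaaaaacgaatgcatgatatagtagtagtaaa
NOG1 (chrXVI:370628-370927, plus strand): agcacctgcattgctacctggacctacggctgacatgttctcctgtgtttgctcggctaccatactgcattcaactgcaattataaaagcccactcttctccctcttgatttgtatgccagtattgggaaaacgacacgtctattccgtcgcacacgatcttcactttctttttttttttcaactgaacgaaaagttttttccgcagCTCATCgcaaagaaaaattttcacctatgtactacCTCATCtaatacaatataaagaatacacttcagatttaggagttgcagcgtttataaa

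NHP2 holds 1 match and NOG1 holds 2, both as the reverse complement. Of 36 genes of at least 300 bases for RNA polymerases I and III, which make the ribosomal and transfer RNAs, 19 missed the 10 FPKM limit. The 17 tested ones had a median level of 6.48 FPKM at 0 h and 18.9 at 10 h, so most passed through the 10 h library alone. Of these 17, 11 were higher and 0 lower, with a median difference of 1.16, against 0.90 over all 36. After scaling 5 of 17 were higher, beside 23.2% of all tested genes, with a median of 0.93. With the 8 h library as the end the median of tested genes was -0.025. RPA135, a large polymerase I subunit, went from 6.06 to 18.6 FPKM and RPC40, shared by both enzymes, from 2.64 to 16.1 FPKM. Translation factors were higher for 17 of 37 genes and lower for 1, with a median of 0.86. Of the 17, 15 had their highest library at 10 h, and with the 8 h library as the end the median was -1.09, so this direction too rests on the 10 h library. TEF4, an elongation factor subunit, was at 12.3 and 73.7 FPKM, CDC33, the cap-binding protein, at 7.61 and 46.0 FPKM and PRT1, of initiation factor 3, at 4.65 and 26.1 FPKM. HEF3, the minor copy of the fungal elongation factor 3, was at 80.4 and 568 FPKM, whereas its major copy YEF3 had returned from 0.534 FPKM at 7.5 h to 19.9 FPKM, against 29.5 at 0 h. Of 49 mitochondrial ribosomal protein genes 8 were higher and 7 lower, with a median of 0.52 (0.25 after scaling), and whether they differ from the cytosolic ones was not tested.

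**Figure D3:**
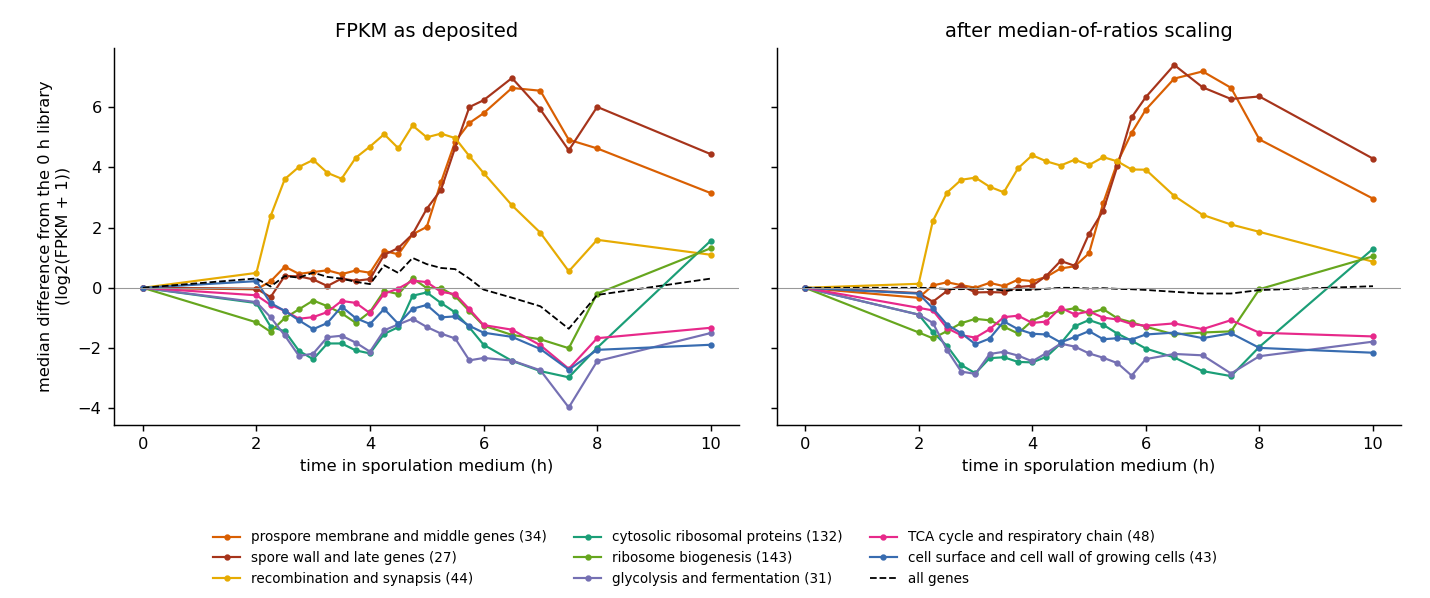
Median log2(FPKM + 1) difference from the 0 h library over all genes of at least 300 bases in 8 lists (numbers in brackets) and over all genes, in each of the 23 libraries, as deposited and after median-of-ratios scaling. Ribosomal protein genes move from -1.99 at 8 h to 1.57 at 10 h on the deposited scale, while surface genes of growing cells stay near -2 in both.

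Glycolysis stayed down from its hexose phosphate steps to pyruvate kinase. Of 25 tested genes of glycolysis and fermentation 17 were lower and 2 higher, with a median of -2.21 (-2.50 after scaling, and -1.50 with no FPKM limit). All 17 had their highest library at 0 or 2 h. TDH1 (YJL052W, chromosome X, 338271 to 339269), a glyceraldehyde phosphate dehydrogenase, was at 326 FPKM at 0 h (bounds 304 to 349), 2.58 at 4 h and 1.14 at 10 h (bounds 0 to 2.45), a log2 difference of -7.26. Its paralogues TDH2 (492 to 12.5 FPKM) and TDH3 (342 to 70.9 FPKM) were lower too, and closely related copies such as these can share reads. TDH3 was at 9.75 FPKM at 8 h and TDH1 at 1.22 FPKM, so of this family TDH3 had moved back toward the start and TDH1 had not.

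Most other called genes of the list were lower too, while 6 of its 25 tested genes lay above 0. PGI1, phosphoglucose isomerase, went from 32.8 to 2.68 FPKM, the phosphofructokinase subunits PFK1 from 67.7 to 11.5 FPKM and PFK2 from 37.8 to 13.2 FPKM, aldolase FBA1 from 134 to 16.9 FPKM and TPI1 from 64.2 to 5.55 FPKM. Enolases ENO1 (77.9 to 17.1 FPKM) and ENO2 (89.4 to 6.79 FPKM) and pyruvate decarboxylase PDC1 (141 to 29.8 FPKM) were lower. CDC19, pyruvate kinase (318 to 6.29 FPKM), GPM1 (37.2 to 1.30 FPKM) and PGK1 (52.1 to 9.21 FPKM) were lower as well, with 64.1%, 62.9% and 47.6% of them under other rows. The entry kinases behaved otherwise. HXK1 and GLK1 had returned, with 55.7 and 44.8 FPKM and 94.7 and 132 FPKM at 0 and 10 h after lows of 1.48 and 3.31 at 7.5 h. ADH1, alcohol dehydrogenase, had returned as well, at 68.7 and 99.7 FPKM.

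Acetate use split between genes that came back in full and genes that stayed down. Of 31 tested genes 17 were lower and 3 higher, with a median of -1.30. PCK1 (YKR097W, chromosome XI, 631152 to 632801), which makes phosphoenolpyruvate for gluconeogenesis, was at 404 FPKM at 0 h (bounds 385 to 422), 8.91 at 3.5 h and 439.8 at 10 h (bounds 421 to 459), so its bounds overlapped. ICL1, isocitrate lyase of the glyoxylate cycle, was at 323, 16.5 and 339 FPKM at 0, 2.75 and 10 h, and ADH2, which oxidises ethanol, at 684, 6.49 and 615 at 0, 7.5 and 10 h. The partners of PCK1 and ICL1 had not come back. FBP1, the other control enzyme of gluconeogenesis, was at 188 and 13.6 FPKM, MLS1, the malate synthase that acts after ICL1, at 733 and 89.95 FPKM, and MDH2, the cytosolic malate dehydrogenase, at 1228 and 78.7 FPKM. The succinate-fumarate carrier SFC1 (597 to 22.8 FPKM), the carnitine acetyltransferase YAT1 (443 to 23.3 FPKM) and acetyl-CoA synthetase ACS1 (1325 to 356 FPKM) were lower. Among the membrane proteins of the acetate and ammonium transporter family, ADY2 was at 2115 and 2334 FPKM and ATO3 at 269.8 and 221 FPKM, neither called, and ATO2 at 636 and 15.9 FPKM, called lower.

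Respiratory genes ended lower, with 27 of 47 tested genes of the TCA cycle and respiratory chain lower and 1 higher, and a median of -1.34. The median over the list's 48 members of at least 300 bases was 93.8 FPKM at 0 h and 48.8 at 10 h. ATP14, an ATP synthase subunit, was at 787 and 38.5 FPKM, CIT3, a mitochondrial citrate synthase, at 788 and 77.2 FPKM, SDH3 at 463 and 61.3 FPKM, IDH1 at 56.3 and 6.17 FPKM and COX4 at 36.0 and 5.47 FPKM. CIT1, the major citrate synthase, and LPD1, of the pyruvate and ketoglutarate dehydrogenases, had returned, at 370.1 and 333 FPKM and at 66.05 and 58.1 FPKM. HAP4, the activator of respiratory genes, was at 112 and 65.6 FPKM, a difference of -0.77 on the deposited scale and of -1.06 after scaling, where it was called lower.

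Hexose transporters moved in both directions. Of 23 members 13 missed the 10 FPKM limit, and of the 10 tested 6 were higher and 2 lower. The median difference was 1.78 over the tested members and 0.31 over all 23. HXT6 and HXT7, near-identical high-affinity transporters that cannot be told apart, went from 76.0 and 90.1 FPKM to 3.40 and 2.60 FPKM. HXT10 is given above, HXT14 was at 102 FPKM at 10 h from a value close to 0 at 0 h, with 23.2% of it under another row, and STL1, a glycerol importer, went from 0.403 to 24.0 FPKM. Of 19 trehalose and glycogen genes 4 were higher and 3 lower, near the background. Beside SGA1, the higher ones included PIG2, a glycogen phosphatase regulator (65.95 to 469.5 FPKM), GSY1, a glycogen synthase (13.6 to 51.9 FPKM), and TPS1, trehalose phosphate synthase (90.3 to 250.5 FPKM), and the lower ones GAC1, another phosphatase regulator (395 to 36.8 FPKM), and GLG2 (30.4 to 7.70 FPKM). GSY2 and GPH1, glycogen phosphorylase, had returned, at 65.4 and 52.3 FPKM and at 135 and 85.6 FPKM.

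The list named surface of growing cells had the largest share of lower genes, 28 of 33, with 1 higher and a median of -2.30 (-2.58 after scaling). The name is a label only, since the list also holds wall genes of resting cells and genes high in SPO at 0 and 2 h. Its fall is therefore not a measure of growth alone. FLO11 (YIR019C, chromosome IX, 389572 to 393675), the flocculin of adhesion and filamentous growth, was at 5736 FPKM at 0 h (bounds 5694 to 5779), 6724 at 2 h, 97.95 at 6 h and 64.9 at 10 h (bounds 60.4 to 69.5), a log2 difference of -6.44. SED1, a major wall protein of resting cells, went from 4702 to 150.1 FPKM, HSP150, a wall protein of the PIR family, from 1129.7 to 18.9 FPKM, and YGP1, a secreted glycoprotein, from 605 to 16.1 FPKM. SPI1 (252 to 11.1 FPKM), SCW4, a glucanase-like protein (102 to 4.09 FPKM), GAS1, a glucan-remodelling enzyme (22.2 to 3.10 FPKM), and CIS3 (75.8 to 16.3 FPKM) were lower too. HPF1, a wall mannoprotein, was at 7472 FPKM at 0 h and 442 at 10 h, its lowest library.

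A few surface genes came back. TIP1 (YBR067C, chromosome II, 372103 to 372735), a mannoprotein of the wall, was at 3189 FPKM at 0 h (bounds 3094 to 3285), 213 at 4 h, 25.5 at 7.5 h, 697 at 8 h and 3222 at 10 h (bounds 3126 to 3317). Its bounds at 0 and 10 h overlapped, and every library from 3 to 7.5 h lay far below both. CWP1, a wall mannoprotein, was at 498 FPKM at 0 h, 8.24 at 3.25 h, 4971 at 7 h and 707 at 10 h, and BGL2, a glucan transferase, at 28.4 and 36.3 FPKM. Higher at 10 h, from outside that list, were PIR5, of the PIR family (9.19 to 1064 FPKM), and CCW22 (998 to 11619.7 FPKM), with 55.2% of CCW22 under another row.

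Copper and iron uptake stayed down, with 17 of 26 tested genes lower, 3 higher and a median of -2.09, and after scaling 18 lower and 0 higher of 28. With no FPKM limit the median was -1.26, with a pseudocount of 5 it was -1.29 and with 2 h as the start -0.90. The high-affinity copper transporters CTR1 (97.1 to 11.9 FPKM, with 30.1% of it under another row) and CTR3 (109 to 2.31 FPKM) were lower. So were the iron-siderophore mannoproteins FIT2 (208 to 4.66 FPKM) and FIT3 (419 to 19.8 FPKM), the siderophore transporter SIT1 (120.3 to 8.24 FPKM) and the multicopper oxidase FET3 (121 to 9.36 FPKM). The vacuolar counterparts FET5 and FTH1 had returned, at 69.8 and 63.2 FPKM and at 24.7 and 33.1 FPKM. Copper was added between the 2 libraries, so the effect of copper and that of time in sporulation medium cannot be told apart here. Of the copper-activated genes, 2 of 5 were long enough and tested. SOD1, superoxide dismutase, was lower (455 to 220.0 FPKM) and the other was not called.

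Other large falls lay outside the lists above or at their margin. They were MRH1, a membrane protein related to HSP30 (83.9 to 1.19 FPKM), HPA2, an acetyltransferase (122 to 2.25 FPKM), CYB2, lactate dehydrogenase (55.6 to 1.15 FPKM), MGA1 (56.7 to 1.03 FPKM), ISF1 (200.4 to 6.30 FPKM) and LSB1 (236 to 8.08 FPKM). For MRH1, HPA2, FIT2, CTR3, MGA1 and TDH1 the lower bound at 10 h was 0, so the size of the fall is uncertain.

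Some genes stood much higher at 10 h than at 8 h. CTT1 (YGR088W, chromosome VII, 654634 to 656322), the cytosolic catalase, was at 1.64 FPKM at 0 h (bounds 0.479 to 2.79), 16.1 at 8 h and 209 at 10 h (bounds 196 to 223). GRE1, a hydrophilin of osmotic stress, was at 5.00, 4.25 and 98.3 FPKM at 0, 8 and 10 h, CTA1, the peroxisomal catalase, at 36.8, 89.9 and 380.3 FPKM, and HSP12, a small membrane-binding stress protein, at 293, 483 and 2527 FPKM. NCE102, of the plasma membrane eisosomes, was at 214, 378 and 3499 FPKM. An open reading frame with no standard name (YDL218W, chromosome IV, 66493 to 67446) was at 0.405, 2.61, 279 and 2069 FPKM at 0, 7.5, 8 and 10 h, a log2 difference of 10.53. Another unnamed frame, YEL023C, had reached its level by 8 h and was at 2.30, 2455 and 2029 FPKM at 0, 8 and 10 h. The heat shock and oxidative stress list as a whole was mixed, with 14 higher and 11 lower of 40, and HSP26, a small heat shock protein, was lower, at 17.2 and 1.37 FPKM.

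Peroxisome and beta-oxidation genes were higher for 21 of 36 and lower for 0, with a median of 1.60 (1.35 after scaling, again 21 higher). The enzymes of fatty acid breakdown POX1 (27.3, 153 and 259 FPKM at 0, 8 and 10 h), FOX2 (51.2, 62.7 and 367 FPKM) and POT1 (33.5, 25.5 and 249 FPKM) rose. PEX11, of peroxisome division, was at 19.7, 17.8 and 173 FPKM, and the fatty acyl-CoA synthetase FAA2 at 23.02, 10.7 and 106 FPKM, so these genes were well above their 8 h value. The cytosolic synthetases FAA1 and FAA4 had returned, at 34.7 and 40.5 FPKM and at 83.1 and 61.9 FPKM. With 8 h as the end the list's median was 0.60.

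Autophagy genes were higher for 9 of 24 and lower for 2, a share near the background. ATG8, the ubiquitin-like protein of the autophagosome, was at 769.6, 9673 and 6207 FPKM at 0, 8 and 10 h, and the kinase ATG1 at 24.6, 267 and 233 FPKM. Of 13 vacuolar proteases and sporulation subtilases 4 were higher and 1 lower. RRT12, a subtilase of spore formation, rose from 2.11 to 75.5 FPKM and PEP4, the vacuolar aspartyl protease, from 128 to 398 FPKM. PRB1, the main vacuolar serine protease, had returned, at 267 and 385 FPKM after 17.9 FPKM at 7.5 h.

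Nitrogen genes were higher for 11 of 27 and lower for 6, and amino acid synthesis genes for 13 and 13 of 58, with a median of 0.00. GLN1, glutamine synthetase, was at 164 FPKM at 0 h, 5.68 at 2.75 h, 1044 at 8 h and 861 at 10 h, so it ended on the other side of its start. PTR2, a peptide transporter, went from 2.84 to 65.9 FPKM and UGA2, of GABA use, from 4.71 to 39.0 FPKM, while OPT2, an oligopeptide transporter, went from 186 to 21.1 FPKM. The permeases GAP1 and MEP2, at 273 and 323 FPKM at 2 h, were at 5.07 and 3.72 at 10 h and under the limit for the test. LEU1, of leucine synthesis, was higher (5.83 to 147 FPKM), as was MET6, methionine synthase (5.78 to 45.5 FPKM), and SAM1 (28.9 to 2.23 FPKM) and ARO8 (32.9 to 2.78 FPKM) were lower. ARO10, DIP5 and PUT4, of amino acid breakdown and uptake, had returned, at 231 and 331, 67.0 and 51.4, and 71.9 and 70.0 FPKM.

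Most genes of DNA replication (37 of 54) and 6 of 11 histone genes left their starting level during the course and were back within 2-fold of their start at its end, and the median of the proteasome genes ended somewhat below it. The proteasome list's median was 29.1 FPKM at 0 h, 159 at 4.75 h and 18.6 at 10 h, with 13 of 37 genes lower and 1 higher. Its median difference from 0 h at 4.75 h was 2.53, and 1.34 after scaling. The scaled median was highest at 4.5 h, at 1.45. RPN4, the activator of proteasome genes, was at 80.5 and 16.2 FPKM, UMP1, an assembly factor, at 168 and 35.9 FPKM, and BLM10, an alternative cap of the proteasome, was the 1 higher gene, at 15.6 and 46.6 FPKM. Of 21 tested DNA replication genes 5 were higher and 4 lower, with a median of 0.20. POL1, a polymerase subunit, was at 2.38 FPKM at 0 h, 91.1 at 3 h and 1.94 at 10 h, under the limit for the test at both ends. MCM3, of the replicative helicase, was lower (10.5 to 0.842 FPKM).

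Histones had peaked at 3.25 to 3.5 h. HHF1, a histone H4 gene, was at 133 FPKM at 0 h (bounds 95.1 to 172), 6872 at 3.25 h and 238 at 10 h (bounds 187 to 289), a difference of 0.83 that was not called. HTB2, a histone H2B gene, was at 6.30, 892 and 6.25 FPKM at 0, 3.25 and 10 h. Core histone genes come in near-identical copies, so a value of 1 copy is uncertain. Of 9 tested histone genes 4 were higher, among them the linker histone HHO1 (12.2 to 53.1 FPKM) and the centromeric CSE4 (18.1 to 57.6 FPKM), and 1 was lower, HHT2 (963 to 273 FPKM). Of the other small lists, G1 cyclins and Start gave 1 higher and 1 lower of 10 (WHI5, 2.08 to 18.8 FPKM, and CLN3, 45.6 to 4.31 FPKM). Haploid and mating genes gave 5 higher and 0 lower of 11, such as GPA1 (2.00 to 20.8 FPKM) and STE12 (4.89 to 23.9 FPKM). In that list 24 of 35 members of at least 300 bases missed the 10 FPKM limit. Its median difference was 0.97 over the tested genes and 0.58 over all 35.

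**Figure D4:**
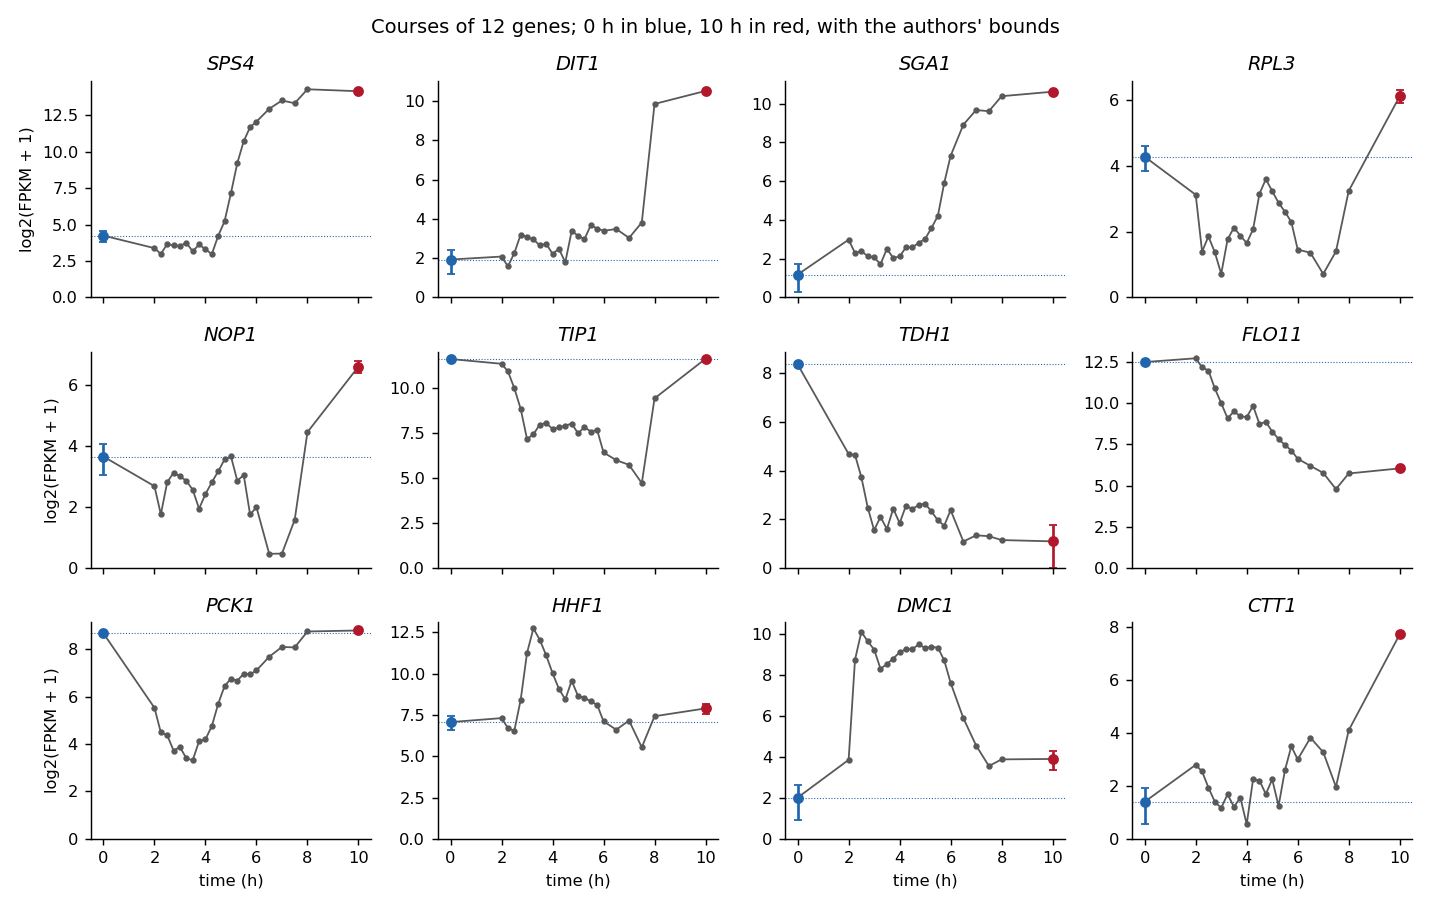
Log2(FPKM + 1) of 12 genes in all 23 libraries against time, with the 0 h library in blue, the 10 h library in red, the authors' bounds as bars and a dotted line at the 0 h level. TIP1, PCK1 and HHF1 end near the line, SPS4, DIT1, SGA1 and CTT1 far above it and TDH1 and FLO11 far below it, while RPL3 and NOP1 lie under it for most of the course and end above it.

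Return was counted over the whole course for 4951 genes of at least 300 bases that reached 10 FPKM at 0 h, at 10 h or as the median of 1 of 4 windows (2.25 to 3, 3.25 to 4.5, 4.75 to 6 and 6.5 to 8 h). A gene had departed where a window median lay at least 1 from its 0 h value on the log2 scale, which 4387 genes did. It had returned where the 10 h difference was then under 1 and at most 0.5 of the departure, which held for 1897 genes (38.3%). Another 1790 (36.2%) had not returned, 503 (10.2%) ended at least 1 on the other side of the start, and 207 (4.18%) differed only at 10 h. The remaining genes were 197 between these classes and 357 that stayed near the start. Of the 1790 that had not returned, 1046 had departed upward, and of the 503 on the other side, 387 had departed downward. After scaling 1746 had returned, 1696 had not, 406 were on the other side and 286 differed only at 10 h. These classes use no bounds, and the 10 h side of each is 1 library.

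The lists fell into these classes as follows. Of the middle genes 33 of 34 had not returned, of the spore wall and late genes 23 of 27, of the surface genes of growing cells 28 of 36 and of the copper and iron uptake genes 19 of 27. Of the cytosolic ribosomal protein genes 86 of 128 had ended on the other side and 34 had returned (74 and 49 after scaling), and of the ribosome biogenesis genes 59 of 111 had ended there and 29 had returned. Of the DNA replication genes 37 of 54 had returned, and of the proteasome genes 21 of 37. Recombination was divided, with 19 of 43 returned and 23 not. The share of list genes in each class is a description, read beside the shares over all genes, and no list was tested against another.

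**Figure D5:**
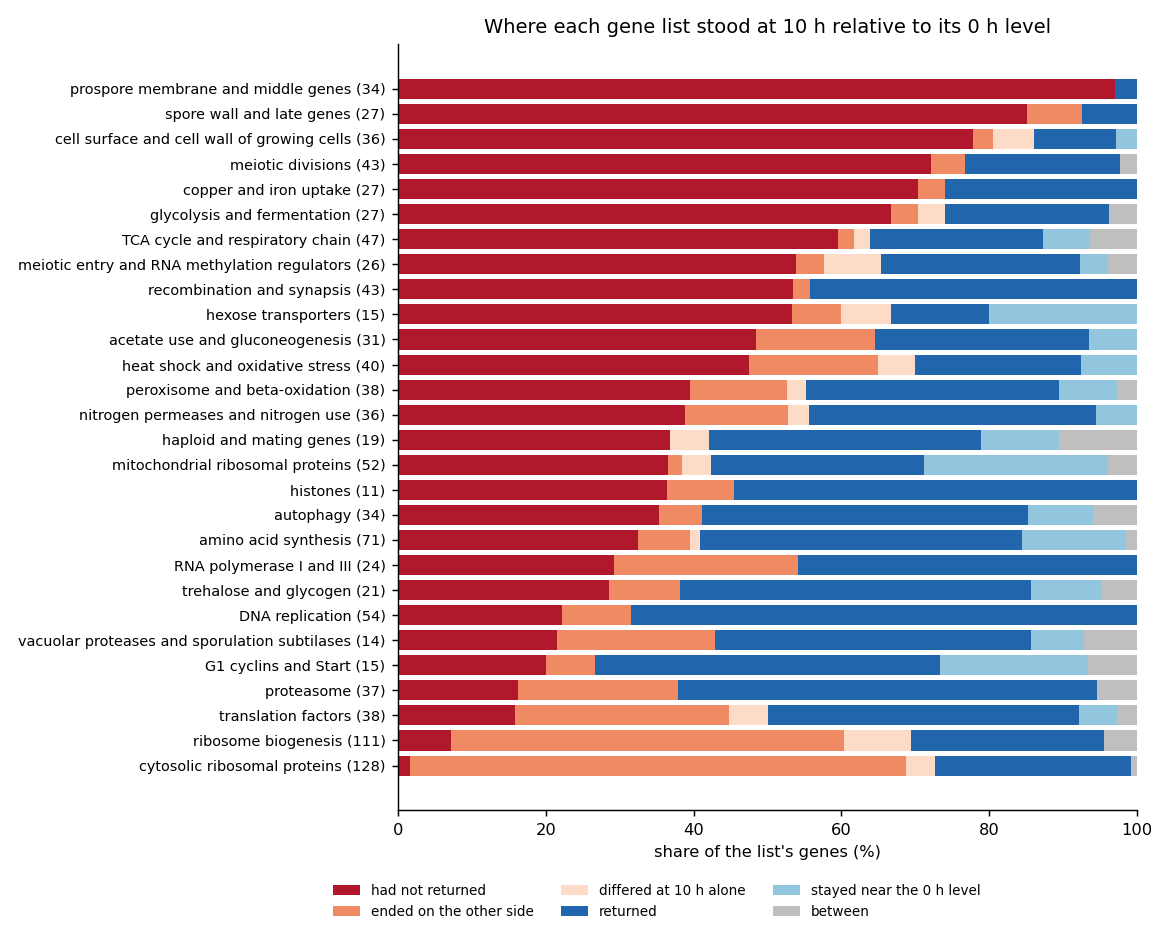
Share of each list's genes (number in brackets, lists with at least 10 genes) by where they stood at 10 h relative to the 0 h level, as stacked bars that add to 100%. Sporulation and surface lists are at the top with the largest share not returned, and ribosome lists at the bottom with the largest share on the other side.

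Over all genes called higher, 511 (41.6%) had their highest library at 10 h and 379 (30.8%) between 6.5 and 8 h. After scaling the order turned, with 394 (40.6%) at 10 h and 481 (49.5%) between 6.5 and 8 h. Of the genes called lower, 589 (77.9%) had their lowest library between 6.5 and 8 h, a span that holds the shallow 7.5 h library, and 87 (11.5%) at 10 h. After scaling the counts of lower genes were 490 (52.2%) and 239 (25.5%). Of 161 tested genes within 30000 bases of a chromosome end 34 were higher (21.1%) and 63 lower (39.1%), against the 30.7% and 18.9% of all tested genes. Open reading frames with no standard name were higher in 123 of 563 cases (21.8%) and lower in 169 (30.02%). Among the 303 of them with under 40% overlap with another row, 82 were higher (27.1%) and 95 lower (31.4%).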

How the data were processed

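Total RNA came from the Ambion Ribopure kit and, per the labels' protocols, copied with random hexamers into NuGEN Ovation universal libraries. Per the file headers, the authors deposited for each gene an FPKM and the low and high bounds of its confidence interval. The submitters' processing notes name Bowtie, Cufflinks 2.2.1 and the builds R64 and sacCer3. The version of Bowtie, the annotation, how strand was treated and the level of the bounds were not given in the sources used. Each table has 7132 rows. Left out were 11 rows without an estimate because of too many fragments and 254 rows that name no gene. For 2 listed names no row was found.

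Values were analysed as log2(FPKM + 1), which understates changes of low genes, with Python 3.11.15, NumPy 2.4.6 and pandas 2.3.3. Fragments behind a value were read from its bounds, as (2F / (U - F)) squared for an FPKM of F with a high bound of U. That reading takes the bounds as 2 standard errors of a count, which the sources used do not state. The bounds hold no spread between cultures. Size factors were medians of ratios over 4907 genes present in all libraries. No count test was possible, since whole reads are not given, and no p-value was computed, since each time has 1 library. Positions are those of R64, where 99.1% of matched identifiers had the same position in RefSeq. Promoter windows were read from the RefSeq R64 assembly.

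The comparison, the lists of genes and the rule by which genes are named were chosen with earlier results of these data known. By that rule the text names IME1, IME4, NDT80 and CUP1-1, the 15 called genes that rose most and the 15 that fell most among those with a standard name and under 40% overlap, and up to 5 called members of each list, up to 3 that returned and, for lists with a median of at least 1 in size, up to 2 closest to no difference. Marker genes and the genes nearest the limit are also named. Not every such gene is printed. CUP1-2, RPL3, TDH3, ENO1, PGK1, PGI1, FBA1, TPI1, PFK1, PFK2, PDC1, FBP1, MLS1, ACS1, ADY2, TPS1, CTR1, GAS1, CIS3, HPF1, PIR5, CCW22, NCE102, HSP12, HSP26, COX4, FAA2, PRB1, GAP1, MEP2, SLZ1, MUM2, RIM4, CDC20, CDC5, CLB1, CLB3, DON1, SPO20, SPO19, POL1, YDL218W and YEL023C were picked with their values in view. The alternatives tried were other pseudocounts, floors, lengths, folds and scalings, other start and end libraries, no condition on bounds or overlap, and other definitions of departure.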

Additional observations from a re-analysis of the deposited data

Results flagged for a closer look

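Rows under 300 bases were kept out of the comparison because dividing by a short length makes FPKM unsteady, and they were looked at separately. Of 359 such rows with at least 10 FPKM at 0 or 10 h, 53 were higher and 33 were lower at 10 h by the same rule, and 24 of each were protein-coding genes. Both shares lie below the 30.7% and 18.9% of the tested genes of at least 300 bases. The short rows are given here because they lie outside the main measurement.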

How the results depend on the processing

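Each count was recomputed under every alternative that applied, and 86 of 102 recomputed counts stayed within 1.5 times the main one. With the 8 h library as the end, 1248 genes were lower in place of 756, 268 had ended on the other side in place of 503 and 116 differed only at the end in place of 207. With the mean of 8 and 10 h as the end the last pair was 262 and 132. A pseudocount of 5 gave 235 on the other side and 366 that differed only at 10 h, and a floor of 20 FPKM gave 117 of the latter. By construction a least fold of 4 gave fewer genes, 517 higher, 353 lower, 781 not returned, 138 on the other side and 43 at 10 h alone, and a departure of at least 2 moved genes between classes, to 1033 returned, 247 on the other side and 1005 at 10 h alone. Of 377 recomputed list medians 312 moved by less than 1.5-fold, and 35, in 12 lists, had the opposite sign to the main one. Of these 35, 3 were in the 15 lists with a main median of at least 1 in size, namely the cytosolic ribosomal proteins with 8 h (-2.26) or the mean of 8 and 10 h (-0.31) as the end, against 1.57, and RNA polymerases I and III with 8 h as the end (-0.025, against 1.16). The other 32 were in 10 lists with smaller medians, among them translation factors with 8 h as the end (-1.09, against 0.86), nitrogen genes with 2 h as the start (-1.85, against 0.53) and copper-activated genes of any length (2.25, against -0.64). Apart from these alternatives' own construction, the cause was not tested. No paired analysis was possible because each time has 1 library. The authors' bounds limit the precision of low genes, and no spread between cultures can be had from single libraries.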
